A study of Mus musculus and Acomys cahirinus with 2 samples.

Results

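The Acomys gene list of this single-cell study gives 24509 names, and 8324 of them are identifiers that start with ACOCA10068_EIv1 and carry no gene symbol. The 200 of these with the most UMIs in cells are described here, and they were chosen by those summed UMIs alone. A UMI (unique molecular identifier) tags 1 captured transcript. Ear skin of adult Acomys cahirinus, a spiny mouse, and of adult Mus musculus was dissociated and sequenced cell by cell in droplets (10x Genomics), and each species has 1 library, labelled day 0. The series text calls the ears injured, and no genotype, treatment or strain is labelled. All values below come from the Acomys library unless the Mus library is named, and with 1 library there is no replicate, so no difference between cells was tested. The Acomys library held 71042559 UMIs. Cells were the 4786 barcodes above a UMI minimum and with at least 200 genes. They held 41289731 UMIs in all, with a lowest total of 2875 and a median of 7580. Of these barcodes, 32 are also cells of the Mus library, and leaving them out changed no count of calls below.

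Skin epidermis is renewed from basal keratinocytes, which sit on the basement membrane and carry the keratin Krt5. Their daughters move up, switch to Krt1 and Krt10, and end as cornified cells of the barrier. Hair follicles add their own keratins, such as Krt17 and Krt79, and sebaceous gland cells make and store lipid, whereas the stroma below holds collagen-making, cartilage and vessel cells. Ribosomal protein genes are among the most abundant messages of nearly every cell. An identifier without a symbol says nothing of what a gene encodes, so the members are described only by where their UMIs lie and by the named Acomys genes they vary with.

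The names without a symbol held 32.1% of the UMIs in cells, and 3543 of them had any UMI. The 200 members held 29.5% of all UMIs in cells, which is 92.0% of the UMIs on names without a symbol. The first member alone held 1.24%, the first 5 held 4.53%, the first 10 held 7.92% and the first 50 held 22.1%. Members made up 7 of the 20 and 48 of the 100 genes with the most UMIs. Their UMIs ran from 511944 for ACOCA10068_EIv1_0128820 to 6167 for ACOCA10068_EIv1_0156690, the 200th, with a median of 20403.5, and the next name, ACOCA10068_EIv1_0095330, had 6140. So a large part of the message in these cells sits under names that a search by symbol does not reach.

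Each member was set against scores of marker genes with a symbol for the basal, suprabasal, follicle, sebaceous and stromal compartments. Pearson correlations (r) were taken over the 4786 cells, which share 1 library and differ in depth, and are given as descriptions. A member was said to follow the compartment of its highest r where that r was at least 0.3. It was called even where no r with the 5 scores reached 0.15 in size and its highest level among 4 epithelial classes was under 2 times its lowest. All others were in between. Levels are CPM, the UMIs of a gene scaled to 1000000 UMIs of all genes in a class of cells, and CPM intervals are exact Poisson intervals that cover counting error only. The classes were built from clusters made on genes with a symbol alone, so no member took part in them.

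The clusters gave 1153 basal-like, 983 suprabasal-like, 597 follicle-like, 492 sebaceous-like, 212 stromal-like, 36 immune-like, 20 melanocyte-like and 398 cycling cells. The remaining 895 cells fell in 3 unnamed clusters, of which the largest, with 603 cells, had 5 basal markers but was led by Mal, Apoc4 and Fst. Median UMIs ran from 3604 in the immune-like class to 12763 in the suprabasal-like class. Of the sebaceous-like cells, only the 81 of cluster 15 were led by lipid droplet genes (Plin2, Cidea, Elovl3), and the 411 of cluster 3 were named from Mgst1, Pparg and Ldhb. Several markers, among them Krt14, Flg and Krt6a, had no row of that symbol in the Acomys list, and the 20 stromal markers held 1771 UMIs in all cells together. Members held 32.3% of the UMIs of the basal-like class, 30.7% in the sebaceous-like, 27.3% in the follicle-like and 26.3% in the suprabasal-like class.

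Among the members, 79 were even, 20 followed the basal score, 17 the suprabasal score, 2 the sebaceous score and 1 the follicle score, 81 lay in between, and none followed the stromal score. The same calls were made for 629 genes with a symbol that had at least as many UMIs as the 200th member. Of those, 41.2% were even, 5.41% basal, 11.4% suprabasal, 0.954% sebaceous, 0% follicle, 0.159% stromal and 40.9% in between. The basal share of the members, 10.0%, was thus above that of the named genes and the suprabasal share, 8.50%, below it, with no test of either. Of the 20 basal members, 8 varied closely with ribosomal protein genes and had small ranges of level, as described below. The share of even members, 39.5%, lay close to that of the named genes. The median ratio of highest to lowest epithelial level was 1.46 for members and 1.61 for named genes. A ratio of at least 2 was reached by 55 members against 34.8% of the named genes, and a ratio of at least 10 by 14 members against 7.15%. The basal count depended on depth and scaling: 7 members were basal with every cell thinned to 1 depth, 4 with a minimum of 1000 UMIs, and 41 when counts were scaled to genes with a symbol other than ribosomal proteins. The suprabasal count was 14, 15 and 15 under the same settings, but 3 at a minimum of 500 UMIs. Shares of the named genes are not given for these settings, so the differences from them are not shown to hold there.

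**Figure D1:**
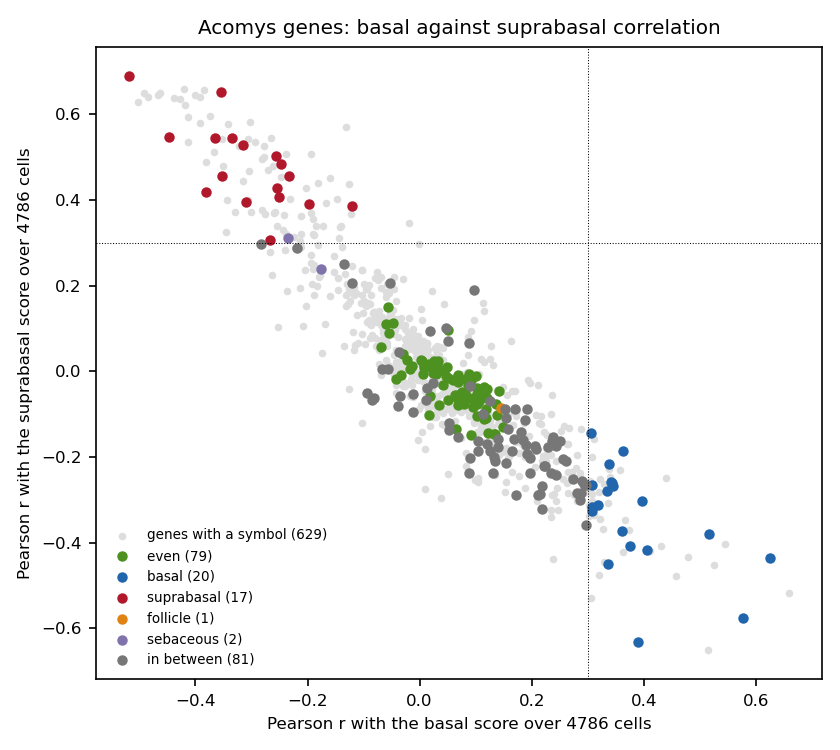
Pearson r with the basal score (horizontal axis) against r with the suprabasal score (vertical axis) over 4786 Acomys cells, with 1 point per gene; members are coloured by call and the 629 genes with a symbol are grey. Dotted lines mark 0.3; members that follow the basal score lie at the lower right and members that follow the suprabasal score at the upper left.

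The calls cut a continuous range. The basal calls ended at ACOCA10068_EIv1_0031870 (r = 0.305), and ACOCA10068_EIv1_0066720 fell just short at 0.298. On the suprabasal side ACOCA10068_EIv1_0008890 had 0.306 and ACOCA10068_EIv1_0112520 0.298. The one follicle call, ACOCA10068_EIv1_0028150, had 0.311 and the next member, ACOCA10068_EIv1_0061530, 0.286, whereas the lower of the sebaceous calls, ACOCA10068_EIv1_0058530, had 0.349 and the next, ACOCA10068_EIv1_0078150, 0.220. Among even members the highest r in size was 0.149, for ACOCA10068_EIv1_0092960, and the highest ratio of levels 1.99, for ACOCA10068_EIv1_0055530, while ACOCA10068_EIv1_0109790 just missed with 0.152.

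The members with the most UMIs varied from cell to cell together with the ribosomal protein genes. The ribosomal score was the mean over the symbols that start with Rpl or Rps, of which 31 had a UMI in cells, and 47 members had an r of at least 0.5 with it, against 5.56% of the named genes. Those named genes were 30 of the ribosomal list itself and Rack1, Eef1a1, Naca, Tpt1 and Eef2, which include a ribosome scaffold protein (Rack1), elongation factors (Eef1a1, Eef2) and a binder of nascent chains (Naca). The 47 members held 20.5% of all UMIs in cells and 69.3% of the members' UMIs, and 42 of the first 50 members were among them. For every one of the 47, the named gene of highest r was itself an Rpl or Rps gene, which choosing them by that score makes likely. Their r ran from 0.502 to 0.856, and the next member below had 0.494.

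The 47 were also nearly level across the epithelial classes. Their ratio of highest to lowest level ran from 1.09 to 1.53 with a median of 1.30, and the 30 ribosomal protein genes with a symbol ran from 1.15 to 1.80 with a median of 1.32. By call, 31 of the 47 were in between, 8 even and 8 basal. The named ribosomal genes divided in a like way, into 23 in between, 3 even and 4 basal. The summed UMIs chose the members, so their high rank is not a result, but the cell-to-cell variation was not used by that choice.

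**Figure D2:**
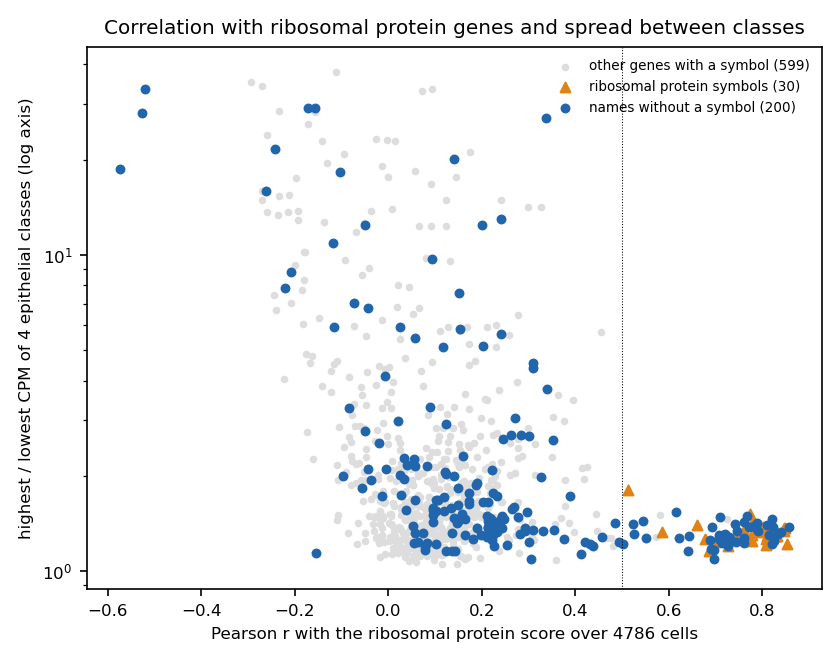
Pearson r with the ribosomal protein score over 4786 Acomys cells (horizontal axis) against the ratio of highest to lowest CPM among the 4 epithelial classes (vertical log axis), with 1 point per gene: 200 members in blue, 30 ribosomal protein symbols as orange triangles, 599 other symbols in grey. The 47 members right of the dotted line at 0.5 lie among the ribosomal protein symbols, with ratios of 1.09 to 1.53.

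ACOCA10068_EIv1_0128820, the most abundant member with 511944 UMIs, had the highest ribosomal r of all members, 0.86. Its closest named genes included Rps9 (r = 0.77) and Rps6 (r = 0.75), both proteins of the small ribosomal subunit. Its level was 13472 CPM in basal-like, 10818 in suprabasal-like, 11822 in follicle-like and 14880 in sebaceous-like cells, a range of 1.38 times. The second, ACOCA10068_EIv1_0022780, with 388856 UMIs, followed the basal score at r = 0.33, yet its ribosomal r was 0.82 and its closest gene was Rps19 (r = 0.81). It stood at 11084 CPM in basal-like and 8053 in suprabasal-like cells, so the basal call of this member rests on a 1.38-fold range.

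The next 3 members by UMIs were of the same kind. ACOCA10068_EIv1_0091010 was even, with a ribosomal r of 0.69 and levels from 7179 CPM in follicle-like to 8454 in basal-like cells. ACOCA10068_EIv1_0023850 had a ribosomal r of 0.83, closest to Rps9, and lay between 6905 and 9054 CPM over the epithelial classes. ACOCA10068_EIv1_0071630 had a ribosomal r of 0.74 and ran from 6510 to 8010 CPM. Its highest level of the 8 named classes was in the 20 melanocyte-like cells, at 11703 (95% interval 11106 to 12323).

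In the Mus library, 91 of the 200 genes with the most UMIs over 6946 cells had no row of the same symbol in the Acomys list, and they held 31.1% of the Mus UMIs. Ribosomal proteins were 49 of these 91 symbols, and 8 were mitochondrial. The match was by symbol alone, so a gene held under a different symbol in the Acomys list would count as absent. The first 10 of the 91 were Krt14, Gm8730, Rpl32, Krt2, mt-Atp6, Rplp0, Rps18, Rplp1, Rps14 and Rpl13a. Of ribosomal protein symbols, 85 had a UMI in Mus cells and 31 in Acomys cells. The files do not pair any of these symbols with a member, and no pairing was made.

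The even members were mostly the less abundant ones. They numbered 11 of the 67 members with the most UMIs, 28 of the next 67 and 40 of the last 66, and together they held 5.21% of the UMIs in cells. Their median was 12887 UMIs, against 20403.5 over all members. With all cells thinned to 1 depth 101 members were even, so fewer UMIs make the call easier to reach. The split by UMIs was not made for the named genes. The median ratio of their epithelial levels was 1.33. A ribosomal protein gene was the closest named gene for 48 of the 79, although 60 of the 79 had a ribosomal r under 0.3. Among all members it was so for 90. The r with that gene could be high or low, as for the even members ACOCA10068_EIv1_0091010 (Rps19, r = 0.70) and ACOCA10068_EIv1_0117220 (Rpl3, r = 0.22). The same count was not made for the named genes, so it is not shown to be particular to the even members. An even member can also differ between clusters of 1 class. ACOCA10068_EIv1_0117220 held 2067 CPM in the follicle-like cluster 16 and 800 in the follicle-like cluster 11.

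The even members with the most UMIs were ACOCA10068_EIv1_0091010 (above), ACOCA10068_EIv1_0218820, ACOCA10068_EIv1_0173870 and ACOCA10068_EIv1_0224430, each with a ribosomal r of at least 0.5. ACOCA10068_EIv1_0218820 had the smallest range of any member, from 4136 CPM in sebaceous-like to 4498 in follicle-like cells. It stayed near that level outside the epithelium too, at 4042 in stromal-like, 4307 in immune-like and 5050 in melanocyte-like cells. ACOCA10068_EIv1_0173870 ran from 3447 to 4020 CPM over the epithelial classes, with Rps20 as its closest gene, and ACOCA10068_EIv1_0224430 from 2474 to 2855.

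The 20 members that followed the basal score were divided by their ribosomal r. For 8 of them the ribosomal r was at least 0.5 and the epithelial range small, 1.33 to 1.49 times. The other 12 had ranges of 2.59 to 27.1 times. At a limit of 0.3 the ribosomal r was reached by 14 of the 20, so some of the other 12 varied with these genes too. Of all 20, 15 had their highest epithelial level in basal-like cells and 18 their lowest in suprabasal-like cells, and 12 had an r under -0.3 with the suprabasal score. The classes were named from the markers of the scores, so the counts by class are in part set by the call.

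ACOCA10068_EIv1_0192050 was the strongest basal member, with r = 0.63 and 132538 UMIs. Its closest named genes were Krt5 (r = 0.73), the basal keratin, Ifitm3 (r = 0.64), an interferon-induced membrane protein, and S100a10 (r = 0.53), a calcium-binding protein family member. Its level was 8572 (95% interval 8510 to 8635) CPM in basal-like and 317 (95% interval 307 to 326) in suprabasal-like cells, a range of 27.1 times. Follicle-like cells had 1455 CPM, sebaceous-like 2453, cycling 4943 and immune-like 584. Within the basal-like class it was not level: clusters 1 and 7 had 10498 and 8040 CPM, and cluster 4, whose leading genes include Aspn, Krt35 and Postn and whose median depth was 3520 UMIs, had 1595.

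ACOCA10068_EIv1_0022550 had a basal r of 0.58 and a suprabasal r of -0.58. Its closest genes were Fth1 (r = 0.66), the ferritin heavy chain that stores iron, Krt5 (r = 0.65) and Krt15 (r = 0.59). It fell short of 200 CPM in one epithelial class alone, the suprabasal-like, at 161 (95% interval 154 to 168), against 1996 in basal-like and 1944 in follicle-like cells. By class it was higher outside the epithelium, at 2841 CPM in stromal-like, 3434 in immune-like and 4115 in melanocyte-like cells. Single epithelial clusters were as high, with 4529 CPM in the follicle-like cluster 11, above each of these classes, and 4103 in the basal-like cluster 4. Of the 8 named classes, the suprabasal-like was its lowest and the melanocyte-like its highest.

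ACOCA10068_EIv1_0145390, a member of low abundance with 7201 UMIs, had r = 0.52 with the basal score and lay closest to Krt5 (r = 0.52) and Krt15 (r = 0.47), both basal-layer keratins. Its level was 318 (95% interval 306 to 330) CPM in basal-like and 24.5 (95% interval 21.9 to 27.3) in suprabasal-like cells, and the 271 cells of unnamed cluster 8, led by Wif1 and with a median of 4025 UMIs, had more, 503. ACOCA10068_EIv1_0001010 had r = 0.40, closest to Ifitm3 (r = 0.47) and Ifitm2 (r = 0.42), and was in fact highest in sebaceous-like cells, at 977 CPM against 779 in basal-like and 214 in suprabasal-like cells.

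Another 2 basal members stood out after their values were seen. ACOCA10068_EIv1_0031870 was tied to 1 gene: its r with Gsta4, a glutathione transferase, was 0.86, and the next, with Ifitm3, 0.38. It held 285 CPM in basal-like and 50.7 in follicle-like cells. ACOCA10068_EIv1_0079130 was called basal at r = 0.39 but was lower in basal-like (1165 CPM) than in sebaceous-like cells (3815). Its closest genes were Apoe (r = 0.67), a lipid carrier, Fth1 (r = 0.64) and Gsta3 (r = 0.55), and its r with the suprabasal score, -0.63, was the lowest of all members.

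The 17 members that followed the suprabasal score had larger ranges than the basal ones, 2.01 to 29.1 times with a median of 7.04, and none had a ribosomal r of 0.3 or more. In 16 of the 17 the suprabasal-like class had the highest epithelial level, the exception being ACOCA10068_EIv1_0003850. The class was named from the markers of the score, so this count is in part set by the call. Of the 3 suprabasal-like clusters, 14 of the 17 were highest in cluster 10. The same count was not made for the named genes, so it is not shown to be particular to the members. Cluster 10 had 9 markers of the suprabasal score, the most of the 3, so members chosen by that score are likely to be highest there. That cluster holds 224 cells, is led by Igfl3, Klk5 and Serpina12, counts Lor, Ivl and Dsc1 among its markers, and has the deepest cells of all, with a median of 20593 UMIs. Depth and position in the layers cannot be told apart here.

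ACOCA10068_EIv1_0144090 had the highest r of any member with a compartment score, 0.69, and its r with the basal score was -0.52. It lay closest to Krt10 (r = 0.67), the suprabasal keratin, Spink5 (r = 0.67), an inhibitor of the skin's kallikrein proteases, and Ly6g6c (r = 0.65). Suprabasal-like cells had 4134 (95% interval 4100 to 4169) CPM and basal-like cells 285 (95% interval 273 to 296), with 260.3 in sebaceous-like and 1471 in follicle-like cells. Over the suprabasal-like clusters it stood at 1131 CPM in cluster 6, 2967 in cluster 2 and 7995 in cluster 10.

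ACOCA10068_EIv1_0214160 had r = 0.65 and lay closest to Krt10 (r = 0.67), Krtdap (r = 0.66) and Lgals7 (r = 0.59), all genes of differentiating keratinocytes. It held 1014 (95% interval 997 to 1031) CPM in suprabasal-like and 93.2 (95% interval 84.0 to 103) in sebaceous-like cells. ACOCA10068_EIv1_0073840 followed at r = 0.55, again closest to Krt10, and had a sebaceous r of 0.37 as well. Its levels kept that order, with 1415 CPM in suprabasal-like, 739 in sebaceous-like and 239.8 in basal-like cells. ACOCA10068_EIv1_0012790 had r = 0.54, closest to Spink5 (r = 0.55) and Fabp5 (r = 0.53), the epidermal fatty acid binding protein, and held 572 CPM in suprabasal-like against 65.1 in basal-like cells.

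A group of members, chosen after their values were seen, had their highest level in cluster 10. ACOCA10068_EIv1_0233740 had 3492 CPM there, 634 in cluster 2 and 66.3 in cluster 6, and was closest to Igfl3 and Spink5. ACOCA10068_EIv1_0219710 had 3493, 170.3 and 65.7 CPM in the same order, with Igfl3, Serpina12 and Hal as its closest genes. ACOCA10068_EIv1_0022170 had 2380 CPM in cluster 10, 32.1 in cluster 2 and 32.8 in cluster 6, and its closest genes were Degs2 (r = 0.51), a sphingolipid desaturase, and Lor (r = 0.44), the cornified envelope protein loricrin. ACOCA10068_EIv1_0022460, in between by its call, had 2520 CPM in cluster 10 and was closest to Serpinb13 (r = 0.32).

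For the last 3 of these, few cells held most of the UMIs. The 48 cells highest in each, 1% of all cells, held 71.6% of the UMIs of ACOCA10068_EIv1_0219710, 84.5% of ACOCA10068_EIv1_0022170 and 85.3% of ACOCA10068_EIv1_0022460, against a median of 4.45% over members. Of those 48 cells, 48, 47 and 42 in turn lay in cluster 10. They were not the same cells: ACOCA10068_EIv1_0219710 shared 15 of its 48 with ACOCA10068_EIv1_0022460 and 10 with ACOCA10068_EIv1_0022170, and the last 2 shared 24. In 1 cell ACOCA10068_EIv1_0022460 made up 16.9% of all UMIs.

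**Figure D3:**
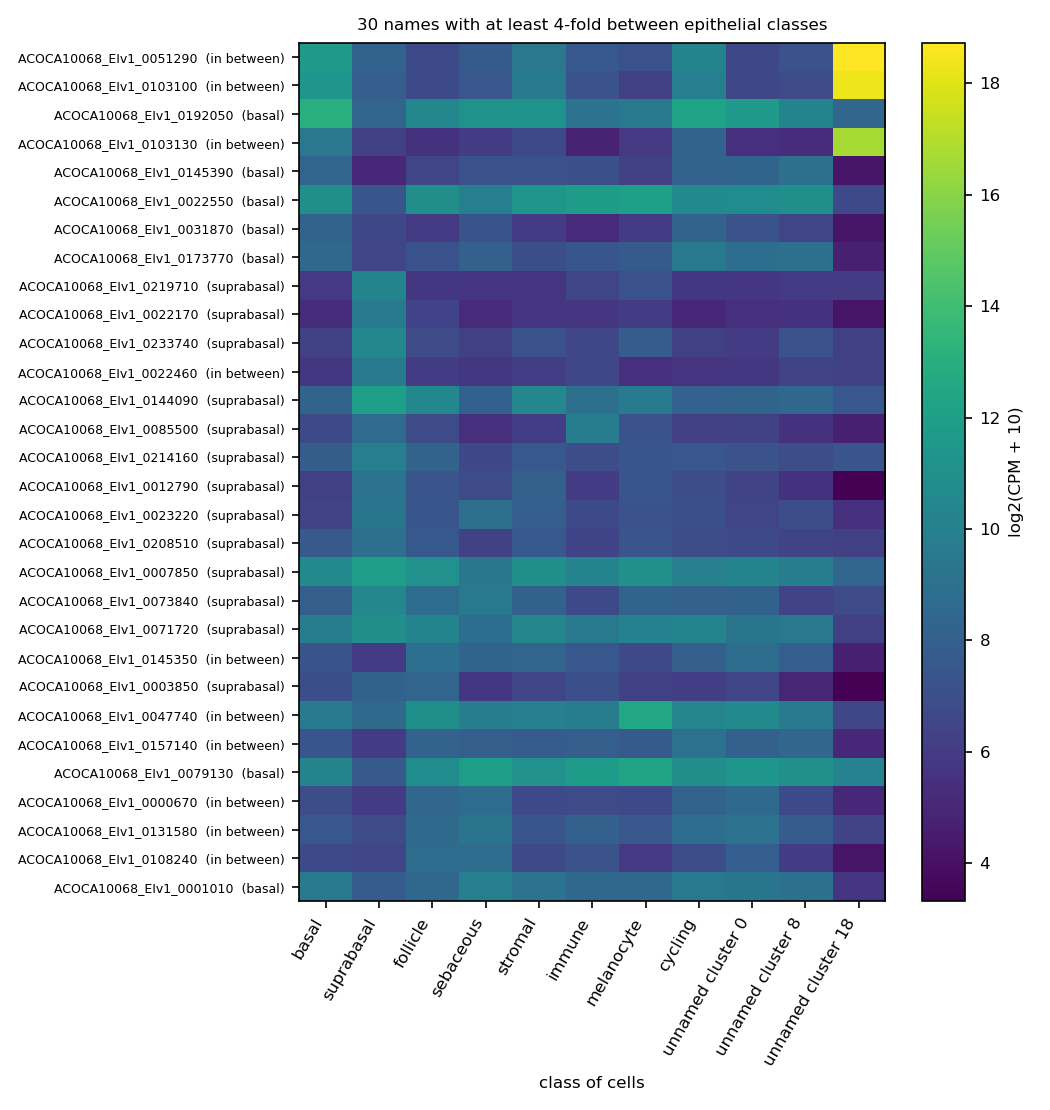
Level as log2(CPM + 10) (colour) of the 30 members with at least 4 times between their highest and lowest epithelial class, in 8 named classes and 3 unnamed clusters of Acomys cells (columns). Basal members are darker in the suprabasal than in the basal column, suprabasal members brighter, and ACOCA10068_EIv1_0051290, ACOCA10068_EIv1_0103100 and ACOCA10068_EIv1_0103130 in unnamed cluster 18.

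The follicle, sebaceous and stromal compartments drew few members. ACOCA10068_EIv1_0028150 alone followed the follicle score, at r = 0.31, with Krt17 (r = 0.35), a keratin of the outer root sheath, as its closest gene. It held 2168 (95% interval 2122 to 2214) CPM in follicle-like and 1072 in suprabasal-like cells, and 774 to 2363 over the follicle-like and sebaceous-like clusters, with the top in cluster 11, which has Krt17, Sox9 and Lhx2 among its markers. Its call was lost in 6 of 12 other settings. Among them were every cell thinned to 1 depth (r = 0.23), a minimum of 1000 UMIs (0.21) or 500 UMIs (0.12), and the follicle list without Fst (0.27), which also led unnamed cluster 0. It also had the highest r of a member with the immediate early genes, 0.18.

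ACOCA10068_EIv1_0008560 and ACOCA10068_EIv1_0058530 followed the sebaceous score, at r = 0.37 and 0.35. Both had Tecr and Hacd2, enzymes that lengthen very long fatty acids, among their closest 3 named genes. Their levels in cluster 15, the sebaceous-like cluster led by Plin2 and Cidea, were 2876 and 2342 CPM, and in cluster 3, the other sebaceous-like cluster, 729 and 814. The suprabasal-like cluster 10 came next, with 1095 and 1241. Both calls ended with every cell thinned to 1 depth (r = 0.25 and 0.21), and at minimums of 1000 UMIs (0.26 and 0.24) and 500 UMIs (0.14 and 0.13). With Spearman correlation neither member kept the sebaceous call, at correlations of 0.313 and 0.298 with that score. In all, 14 members were at least 2 times higher in cluster 15 than in cluster 3, against 6.36% of the named genes. One of them, ACOCA10068_EIv1_0023220, which was looked at after its values were seen, followed the suprabasal score at 0.42 and the sebaceous score almost as closely at 0.41. Its closest genes were Msmo1 (r = 0.54) and Fdft1 (r = 0.47), both of cholesterol synthesis, and Fabp5, and it held 1741 CPM in cluster 15 and 1167 in cluster 10.

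No member reached 0.3 with the stromal score, and among the named genes 1 did, Fabp4. The closest member was ACOCA10068_EIv1_0157710, at r = 0.22, with 441 CPM in stromal-like cells against 159 in all other cells. Melanocyte-like cells (609.9 CPM) and the basal-like cluster 4 (509) were higher than the stromal-like class. Its closest genes over cells were Ctgf, Cd81 and Tspan8. In all, 3 members were at least 2 times higher in stromal-like cells than in the rest, against 2.54% of the named genes: this one (2.77 times), ACOCA10068_EIv1_0022550 (2.34 times) and ACOCA10068_EIv1_0081950 (2.03 times). The stromal-like class is small and shallow, with 212 cells and a median of 4010.5 UMIs, and its score rests on few UMIs, so a weak r is no finding.

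Beyond the 5 compartments, some members varied with proliferation. An r of at least 0.3 with the cycling score was found for 7 members, against 1.91% of the named genes. All 7 had their highest level of any class in the cycling class. That class was named from the markers of the score, so this is in part set by the choice. ACOCA10068_EIv1_0232740 led with r = 0.64 and lay closest to Birc5 (r = 0.56), Cdca3 (r = 0.56) and Ccnb2 (r = 0.55), genes of mitosis. It held 5927 (95% interval 5856 to 5998) CPM in cycling cells and 819 to 1107 in the 4 epithelial classes, so by those classes alone it would look nearly level. Of the others, named after their values were seen, ACOCA10068_EIv1_0105870 had r = 0.51 (closest to Ccna2 and Cdk1), ACOCA10068_EIv1_0054770 0.48 (Hmgb1), ACOCA10068_EIv1_0157140 0.35, ACOCA10068_EIv1_0070070 0.35, ACOCA10068_EIv1_0173770 0.31 and ACOCA10068_EIv1_0036780 0.30. ACOCA10068_EIv1_0070070 was even by its call, which shows that even refers to the 5 scores and the epithelial classes and not to every state of a cell.

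The respiratory chain score, made of symbols for subunits of the mitochondrial electron transport chain and ATP synthase, had an r of at least 0.3 with 45 members, against 12.9% of the named genes. Of the 45, 23 also had a ribosomal r of at least 0.5, and 22 did not. ACOCA10068_EIv1_0197000 was highest at r = 0.54, with Mif (r = 0.46), Slc25a5 (r = 0.37), which swaps ADP and ATP across the mitochondrial membrane, and Chchd10 (r = 0.37) closest. Sebaceous-like cells had 1629 CPM, cluster 15 alone 2807, and suprabasal-like cells 535. ACOCA10068_EIv1_0237880, which had the highest r with the heat shock genes, 0.22, had a larger one with the respiratory chain, 0.44.

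No member had an r of 0.3 with the immune, melanocyte, immediate early or heat shock scores, and no named gene did either. The highest immune r was that of ACOCA10068_EIv1_0110950, 0.14, with 2373 (95% interval 2140 to 2625) CPM in the 36 immune-like cells and 495 to 1041 over the epithelial classes. The highest melanocyte r was that of ACOCA10068_EIv1_0047740, 0.13. In the 20 melanocyte-like cells it held 5969 (95% interval 5545 to 6417) CPM, against 2003 in follicle-like and 389 in suprabasal-like cells. Its closest genes over all cells, Aldh3a1 (r = 0.47) and Adh7 (r = 0.47), are dehydrogenases and not pigment genes. These 2 classes hold 36 and 20 of the 4786 cells, so an r over all cells says little of them.

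A trio of members, chosen after their values were seen, behaved unlike all others. ACOCA10068_EIv1_0051290, ACOCA10068_EIv1_0103100 and ACOCA10068_EIv1_0103130 together made up 77.8% to 91.1% of the UMIs of 36 cells, with a median of 88.4%. In another 8 cells they made up 2% to 50%, and in the rest at most 1.53%, with a median of 0.0144%. The 36 cells held 86.9% of the trio's UMIs in cells. Levels in the 36 were 432970, 343418 and 99631 CPM, and in the cells at or under 2% they were 87.3, 84.9 and 30.2.

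**Figure D4:**
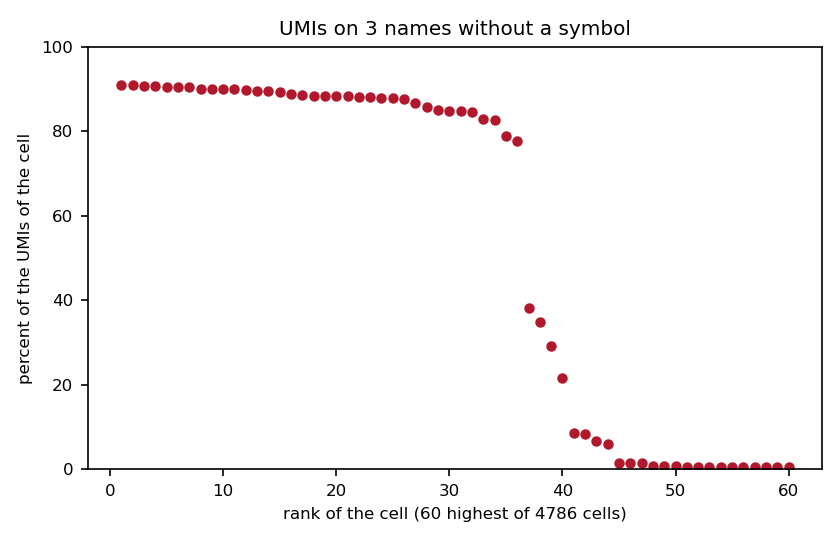
Percent of the UMIs of a cell on ACOCA10068_EIv1_0051290, ACOCA10068_EIv1_0103100 and ACOCA10068_EIv1_0103130 together (vertical axis) for the 60 highest of 4786 Acomys cells in rank order (horizontal axis). The first 36 cells lie at 77.8% to 91.1%, 8 further cells between 2% and 50%, and the others at 1.53% or less.

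Of the 36 cells, 21 formed unnamed cluster 18, and 13 fell in the basal-like cluster 7, 1 in cluster 1 and 1 in cluster 6. Cluster 18 was led by Alas2, which starts heme synthesis in red cell precursors, and its leading genes included Gch1 and Bpgm, which makes the red cell's modulator of oxygen binding. Alas2 had a UMI in 30 of the 36 cells (909 CPM) and in 22 of the other 4750 (1.02 CPM), and Bpgm in 15 of the 36 and in 1521 of the others. Krt5 had a UMI in 32 of the 36 cells, and held 565 CPM in the 36 and 3999 CPM in the others. The trio fills most of the UMIs of the 36 cells, which lowers the CPM of every other gene there. These CPM therefore do not show that the 36 cells have less Krt5 among their other UMIs. Of the 8 symbols of the Mus list that start with Hba- or Hbb-, 2 have a row in the Acomys list, and these had 0 UMIs in cells. Which genes the trio are cannot be told from these files.

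The 36 cells touch other values as well. The trio's ranges over the epithelial classes, 33.5, 28.0 and 18.7 times, fell to 1.47, 1.55 and 1.44 without the 44 cells above 2%. Their basal-like levels fell from 3282, 2754 and 711 CPM to 91.7, 90.1 and 28.9. Without those cells 72 members were even and 18 basal, and the follicle call was lost. Barcodes with over 50% of UMIs on the trio were found at every depth, with 828 at 1 to 10 UMIs, 517 at 11 to 100, 74 at 101 to 499, 30 at 500 to 999 and 37 at 1000 to 2870. At the lowest depth a barcode of 1 UMI passes 50% if that UMI is on the trio. The 377498 barcodes there held 1093461 UMIs in all, so the 828 cannot be set beside the 36 cells. The trio held 2.76% of all UMIs in barcodes of 11 to 100 UMIs and 0.462% in cells.

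Members also varied with each other. The pair of highest r, ACOCA10068_EIv1_0023850 and ACOCA10068_EIv1_0057130 (r = 0.85), kept a ratio of 2.41 to 2.56 over the 8 named classes. ACOCA10068_EIv1_0109170 and ACOCA10068_EIv1_0048450 (r = 0.83) kept 1.07 to 1.20, and both were highest in immune-like cells, at 1607 and 1337 CPM, against 228 and 209 in suprabasal-like cells. ACOCA10068_EIv1_0027250 and ACOCA10068_EIv1_0173770 (r = 0.80), both closest to Ifitm3, varied more, at 1.29 to 2.50, and both were highest in cycling cells, at 1269 and 753 CPM. The identifiers in these pairs lie 3327, 6071 and 14647 rows apart in the gene list, and whether reads are shared between such pairs was not tested.

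Free RNA was read from the 377498 barcodes of 1 to 10 UMIs, whose counts took no part in choosing the members. Members held 26.8% of the UMIs there. The median ratio of a member's share in those barcodes to its share in cells was 0.828, against 1.06 for the named genes. The share in cells comes from the summed UMIs that chose the members, so the ratio is in part set by that choice. A ratio over 2 was found for 2 members, against 0.954% of the named genes, and a ratio under 0.5 for 9 members, against 0.477%. In barcodes of 11 to 100 UMIs these counts were 7 members, against 2.54% of the named genes, and 61 members, against 3.97%.

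ACOCA10068_EIv1_0003850 stood far apart, with a ratio of 13.6 (95% interval 13.0 to 14.2), and its ratio was 12.5 in barcodes of 11 to 100 UMIs. In cells it followed the suprabasal score at r = 0.43, closest to Krtdap (r = 0.51) and Krt1 (r = 0.42), yet its level was highest in follicle-like cells, 320.1 CPM against 271 in suprabasal-like cells. How much of its count in cells is free RNA was not tested. ACOCA10068_EIv1_0079130 came second at 2.15 (95% interval 2.08 to 2.23), and at 4.56 in barcodes of 11 to 100 UMIs. The lowest ratios were those of ACOCA10068_EIv1_0175700, an even member, at 0.428 (95% interval 0.346 to 0.523), and ACOCA10068_EIv1_0061530 at 0.449 (95% interval 0.404 to 0.498).

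**Figure D5:**
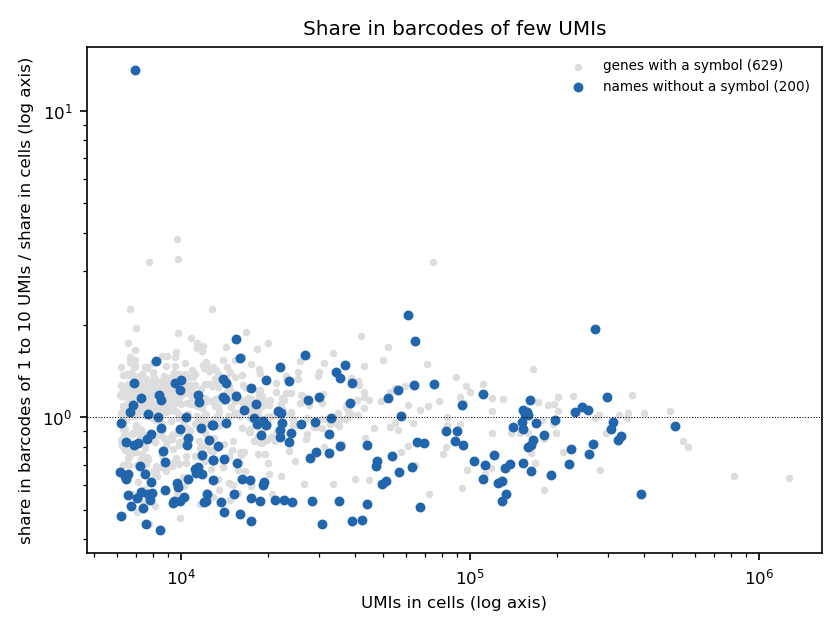
UMIs in cells (horizontal log axis) against the ratio of a gene's share of UMIs in barcodes of 1 to 10 UMIs to its share in cells (vertical log axis), for 200 members in blue and 629 genes with a symbol in grey; the dotted line marks 1. One member lies at 13.6, and the median of the members, 0.828, is below that of the named genes, 1.06.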

How the data were processed

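The files hold UMI counts, not normalized, for each gene and barcode of 1 Acomys and 1 Mus library, as deposited. The authors made them with Cell Ranger 2.2.0 and genome build mm10, per the submitters' processing notes. The names in the Acomys list follow an annotation not named by the labels, and no sequence or position of a member was used.

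Counts per cell were scaled to 10000 and taken as the natural log of 1 plus the value. A score is the mean of z values, limited to 10, over a marker list, leaving out the gene compared. Cells were clustered with scanpy 1.11.5 and leidenalg 0.10.2 (2000 variable genes with a symbol, 30 components, 20 neighbours, resolution 1, seed 1). A cluster was named from at least 3 markers that at least 20% of its cells carried, at 1.5 times the mean of the other clusters. No name was given where another type had more markers than its own among the 10 genes that led the cluster, which left out cluster 0 through Fst. Ribosomal protein kinase symbols were not counted as ribosomal. Doublets were kept in the values reported, and the 183 highest scores by the Scrublet method were left out as an alternative. The code for the calls was checked on simulated data with known answers. Pass limits were set only for even members and for the largest simulated rises in epithelial classes. Smaller rises and stromal members were not covered by them.

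The members, the lists and the rules were chosen with earlier results of these data known. Members named by rule were the 5 with most UMIs, up to 4 of each call with the highest r (for even members the most UMIs), the highest r with each other score, the 2 highest and 2 lowest free RNA ratios, the 3 closest pairs, and the 200th and next name. Others are said to be chosen after their values were seen. Closest named genes are those of highest r among symbols with a UMI in at least 5% of cells. Intervals (95%) are exact and cover counting error only. Mus data served for symbol counts and shared barcodes alone. Alternatives are in the closing section. Some named genes among the closest or leading ones are not reported here.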

Additional observations from a re-analysis of the deposited data

How the results depend on the processing

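No statistical test between cells was made, since each species has 1 library, and no replicate could be left out. No paired analysis was possible for the same reason, and the labels give no replicate numbers. The counts of members depended on the depth of the cells and on the limit of r. At 1000 UMIs per cell (6835 cells) 4 members were basal and none follicle or sebaceous, and at 500 UMIs (12970 cells) 2 were basal, 3 suprabasal and 0 follicle or sebaceous. With every cell thinned to the same UMI total, the minimum, 7 were basal and 0 follicle or sebaceous, and 101 were even. A limit of 0.2 gave 45 basal, 4 follicle, 5 sebaceous and 2 stromal members, and a limit of 0.4 gave 4 basal and 0 follicle or sebaceous. Spearman correlation gave 2 follicle and 1 sebaceous, and a square root scale 2 follicle. The 1 sebaceous member under Spearman correlation was neither of the 2 called by Pearson r. Scaling to genes with a symbol other than ribosomal proteins gave 41 basal, 0 follicle and 60 even members. Limits of 0.1 and 1.5-fold left 37 even members. In barcodes of 11 to 100 UMIs 7 members had a free RNA ratio over 2 and 61 a ratio under 0.5. Chosen after seeing the data, the 4 epithelial classes alone gave 3 follicle members, and leaving Fst out of the follicle list, or leaving out the cells with over 2% of UMIs on the trio, gave 0. In each case the cause was not tested. The other settings, among them 10% free RNA subtracted, doublet scores left out and Leiden resolutions 0.5 and 2, kept each count within 1.5 times. The members' share of UMIs was 29.4% at 1000 and 29.3% at 500 UMIs, where 199 and 198 of the 200 stayed among the first 200, and 197 stayed when ranked by the mean share of UMIs per cell. The r of 11 members named for a compartment reversed under none of 12 settings each and fell under the limit in 19 of 132 cases, 14 of them for ACOCA10068_EIv1_0028150, ACOCA10068_EIv1_0008560 and ACOCA10068_EIv1_0058530. The others were ACOCA10068_EIv1_0001010 at 1000 (r = 0.28) and 500 UMIs (0.23), and ACOCA10068_EIv1_0022550, ACOCA10068_EIv1_0073840 and ACOCA10068_EIv1_0012790 at 500 UMIs (0.296, 0.251 and 0.257). The last members have little over 1 UMI per cell, which limits any r.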

Other observations

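A small group of members, chosen after their values were seen, was higher in follicle-like and sebaceous-like than in basal-like and suprabasal-like cells, and none of the group reached an r of 0.3 with a compartment score. ACOCA10068_EIv1_0131580 and ACOCA10068_EIv1_0000670 had the same closest genes, Gsta3, a glutathione transferase, Cyp1a1, a cytochrome P450 induced by aryl hydrocarbons, and Akr1c18, an aldo-keto reductase. The r with Gsta3 was 0.56 and 0.55. ACOCA10068_EIv1_0131580 held 607 CPM in sebaceous-like, 388 in follicle-like and 104 in suprabasal-like cells, and 517 in unnamed cluster 0, which is led by Mal, Apoc4 and Sparcl1 and has Cyp1a1 among its 10 leading genes. ACOCA10068_EIv1_0000670 kept the same order, with 418, 333, 55.2 and 375 CPM. ACOCA10068_EIv1_0108240 was tied to Ces2h (r = 0.68), a carboxylesterase, and held 542 CPM in the follicle-like cluster 5, led by Cyp2a5 and Krt79, and 485 in the sebaceous-like cluster 3, against 81.6 in suprabasal-like cells. ACOCA10068_EIv1_0145350 lay closest to Apoe (r = 0.42) and Adh7 (r = 0.39), and was highest in follicle-like cells at 489.9 CPM and lowest in suprabasal-like cells at 50.5.

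One suprabasal member had its highest level outside the epithelium. ACOCA10068_EIv1_0085500 (r = 0.53, closest to Krt10 and Krtdap) held 402 (95% interval 391 to 412) CPM in suprabasal-like cells and 923 (95% interval 779.8 to 1085) in the 36 immune-like cells, against 32.3 to 103 in the other epithelial classes.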
